A study of Homo sapiens with 8 samples.

Results

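The cytosolic ribosomal protein genes were followed through 8 RNA-seq libraries of 2 lung adenocarcinoma cell lines. Members were the protein-coding genes whose symbol begins with RPL (large subunit) or RPS (small subunit), without pseudogenes, the kinases named RPS6K, the Y-linked copies of *RPS4X*, the binding proteins named RPS19BP and readthrough genes. This gave 85 of the 57815 gene identifiers in the files, 53 of the large and 32 of the small subunit. ABC1 and HCC4006, established lines without *KEAP1* or *NRF2* mutations, were grown for 16 h with 100 μM diethyl maleate (DEM) or with its vehicle DMSO. DEM is an electrophile that inactivates KEAP1, the adaptor that keeps the transcription factor NRF2 low. Each of the 4 groups (ABC1 vehicle, ABC1 DEM, HCC4006 vehicle and HCC4006 DEM) held 2 libraries, which the study's methods call biological duplicates and whose titles number them 0 and 1. The labels give no other agent, allele or transgene for any group, and each line stands for 1 tumour.

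The cytosolic ribosome is the machine that makes nearly all cellular protein. Its small subunit decodes the mRNA and its large subunit forms the peptide bond, and each ribosomal protein is needed in about the same amount. In vertebrates their mRNAs are known for a 5′ terminal oligopyrimidine (TOP) start, a C followed by an unbroken run of pyrimidines. Through this start mTORC1 and the RNA-binding protein LARP1 control their translation and stability, and several members have diverged paralogues whose roles outside the ribosome are less settled.

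To show that start, the 20 bases before the annotated start and the first 10 bases from it are shown for 10 members, taken from RefSeq on GRCh38.p14. Capitals mark the unbroken pyrimidine run that begins with C at the start, within the bases shown. *RPL31*, *RPL29*, *RPS21* and *RPL38* fell in HCC4006, *RPL22L1* had the most negative change of all members tested, *RPLP0* lay near 0, and *RPS24* and *RPL39* have long runs. *RPL27* also fell in HCC4006 and had no such run at the annotated position shown. Nor had *RPL10A*, *RPL32*, *RPL10*, *RPL6* and *RPS4X*, which fell in HCC4006 too but are not shown. *RPL3*, which fell as well, had a run of only 4 bases at its annotated start. *RPS27L*, a diverged paralogue, lay on opposite sides in the lines.
RPL31, chr2:101002269-101002298 (+): ctcccacaatccttcgcgctCTTCCTTTCC
RPL29, chr3:51995886-51995915 (-): tgctgcaccgcagcccctttCTCTTCCggt
RPS21, chr20:62387083-62387112 (+): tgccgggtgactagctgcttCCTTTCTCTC
RPL38, chr17:74203658-74203687 (+): ccggaaacggaagtctcgttCTTTTTCgtc
RPL22L1, chr3:170870186-170870215 (-): gaccgcgcggccgtagcttcCTCTCTgctc
RPLP0, chr12:120201102-120201131 (-): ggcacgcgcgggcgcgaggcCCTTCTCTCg
RPS24, chr10:78033843-78033872 (+): ttggccggcgaatcgtggttCTCTTTTCCT
RPL39, chrX:119791621-119791650 (-): gctcgttcttccgccagcttCCCTCCTCTT
RPL27, chr17:42998399-42998428 (+): cctcaccggggtgaaaggttagcggaagtg
RPS27L, chr15:63157468-63157497 (-): cccggaagttgatgccgagcgcagatcgct

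A promoter sequence was found for 68 of the 85 members. Of these, 43 (63.2%) began with C and at least 4 further pyrimidines, against 1104 of all 27305 promoters (4.04%). The table gives 1 start per gene, and *RPL10A* and *RPL32* were among the members without the run at that position. In the 300 bases from 250 before to 50 after the start, on either strand, the ETS core CCGGAAG was found in 23 of 68 members (33.8%) and in 10.7% of all promoters. GCCATNTT, the core of the YY1 site, was found in 11 (16.2%) against 6.82%. The E-box CACGTG was found in 4 (5.88%) against 7.43%, the TATA box TATAAA in 7 (10.3%) against 11.95%, and TGACNNNGC, the core of the antioxidant response element that NRF2 binds, in 7 (10.3%) against 13.6%.

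Expression was given as FPKM, fragments scaled to transcript length and to library size, so levels of different genes were compared per length. A member was tested when its mean was at least 1 FPKM in the libraries compared, which 83 of 85 reached. *RPL3L* (a muscle form of *RPL3*) and *RPL10L* (a testis form of *RPL10*) were at or below 0.174 FPKM in every library and were not tested. Fold changes are on the scale of log2(FPKM + 1), given with their standard error (±) and n = 2 libraries per group, tests were made by limma across all genes with Benjamini-Hochberg adjustment, and calls needed an adjusted p under 0.05. An exact permutation test of 2 against 2 libraries cannot give a p under 0.333, so group sums have no p-value. The p-values rest on the spread between duplicates, with each gene's spread drawn toward that of all genes at a like level.

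All 7 known NRF2 targets in the check list rose with DEM in both lines. *HMOX1* had 17.3 and 20.1 FPKM with vehicle and 182 and 174 FPKM with DEM in ABC1, and 5.59 and 5.89 FPKM with vehicle and 57.4 and 55.4 FPKM with DEM in HCC4006. The sums of FPKM per library differed by up to 1.18 times. The steps between low values of single-exon genes gave estimated depths between 0.906 and 1.03 times that of ABC1 vehicle replicate 0. The mitochondrial genome took 20.2% of the summed FPKM in ABC1 DEM replicate 1 and 13.6% to 16.5% in the other 7 libraries. The epithelial keratins *KRT8*, *KRT18* and *KRT19* were at or above 349.9 FPKM in every library. The lung markers *NKX2-1* and *NAPSA* stayed below 1 FPKM in every ABC1 library, and *SFTPB*, a surfactant protein of alveolar cells, was at or below 0.277 FPKM in all 8. The 9 markers of blood, fibroblast and endothelial cells summed to between 6.51 and 8.37 FPKM in ABC1 and between 98.3 and 111 FPKM in HCC4006, of which the lysosomal gene *CD68* held most. The leucocyte marker *PTPRC* was at or below 0.192 FPKM in every library.

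The ribosomal protein genes took a smaller share of the transcriptome after DEM in both lines, and a larger share in ABC1 than in HCC4006. Their summed FPKM was 11.4% of the library's sum in each vehicle-treated ABC1 library and 10.1% and 9.38% in the DEM libraries. In HCC4006 it was 7.17% and 7.46% with vehicle and 6.24% and 6.56% with DEM. The DEM libraries were below the vehicle libraries in each line, and all HCC4006 libraries were below all ABC1 libraries. When the mitochondrial genome was left out of the sum, the share was 13.6% and 13.5% with vehicle against 12.1% and 11.8% with DEM in ABC1, and 8.49% and 8.63% against 7.46% and 7.72% in HCC4006. ABC1 DEM replicate 1 lay below both vehicle libraries of its line with and without the mitochondrial genome. In bulk RNA, fewer cells of a type and less RNA per cell cannot be told apart.

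Epithelial and lung markers also had lower sums with DEM. The 9 markers summed to 4975 and 5826 FPKM with vehicle and 3667 and 4086 FPKM with DEM in ABC1, and to 4641 and 4451 FPKM with vehicle and 3501 and 3544 FPKM with DEM in HCC4006. The DEM sums were below the vehicle sums in each line. In ABC1 all 6 markers tested had a negative log2 fold change, with a median of -0.45, and 4 had an unadjusted p under 0.05, among them the keratin *KRT7* at -1.02 ± 0.17 (adjusted p = 0.06), but none was called. In HCC4006 7 of 8 were negative, with a median of -0.16, and 3 (37.5%, against 10.7% of all genes) were lower, the keratins *KRT7*, *KRT8* and *KRT18* at -0.51, -0.46 and -0.40. The part of these markers in the ribosomal results was not tested.

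**Figure D1:**
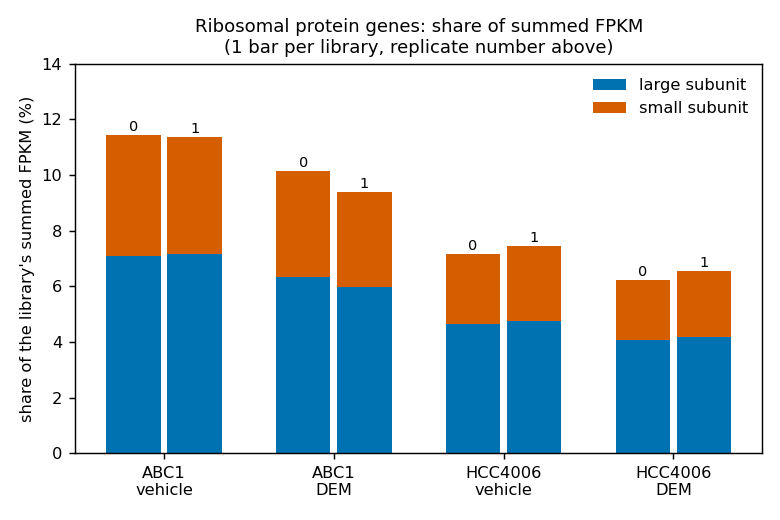
Share of each library's summed FPKM held by the 85 ribosomal protein genes, in percent, with 1 bar per library, large subunit below and small subunit above, and the replicate number over each bar. The DEM bars reach 9.38% to 10.1% in ABC1 and 6.24% to 6.56% in HCC4006, each below the vehicle bars of the line.

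The subunits changed by similar amounts. The ratio of the summed FPKM of large to small subunit members was 1.63 and 1.69 with vehicle and 1.67 and 1.76 with DEM in ABC1, and 1.85 and 1.77 with vehicle and 1.87 and 1.77 with DEM in HCC4006. The vehicle and DEM ratios overlapped in both lines. The median log2 fold change with DEM was -0.23 for both the 51 large and the 32 small subunit members tested in ABC1, and -0.20 and -0.21 in HCC4006. Over all genes tested the median was -0.02 in ABC1 and -0.03 in HCC4006. Other nuclear protein-coding genes that averaged 100 FPKM or more, a group of like abundance, had medians of 1.6e-05 over 944 genes in ABC1 and -0.05 over 951 genes in HCC4006. The median change over the 83 members was -14.6% in ABC1 and -13.3% in HCC4006.

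In ABC1 no member was called. The share of all genes called lower was 0.435% and the share called higher was 0.768%. With the replicate number of the titles, whose meaning is not given, as a block, 20 members (24.1%) were lower, against 9.20% of all genes. In the main fit unadjusted p was under 0.05 for 4 members, *RPL22L1*, *RPS7*, *RPS15A* and *RPS27L*, all with a negative log2 fold change. Over all genes it was under 0.05 for 2771 of 12635 tested, 1436 of them with a negative log2 fold change. Of the 83, 79 had a negative log2 fold change, all but *RPLP0*, *RPL28*, *RPL39L* and *RPS28*, and in 57 (68.7%) the DEM pair lay wholly below the vehicle pair, against 28.2% of all genes tested. No member had both DEM libraries above both vehicle libraries.

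In HCC4006, 18 of 83 members (21.7%) were called lower, against 10.7% of all genes tested, and none was called higher, against 8.45% of all genes. A negative log2 fold change was found for 82 of 83, all but *RPS27L*. Unadjusted p was under 0.05 for 51, against 4985 of the 13542 genes tested. Both DEM libraries lay below both vehicle libraries in 68 members (81.9%), against 35.3% of all genes. By subunit, 15 of 51 large (29.4%) and 3 of 32 small subunit members (9.38%) were called, against 10.7% of all genes. The share of the small subunit was thus near that of all genes, while the 2 subunits had nearly equal medians. Both the count of calls and its excess over all genes depended on single libraries and on the fit. With a minimum of 5 FPKM 22 members (26.5%, against 14.5% of all genes) were lower. With scaling to the other nuclear genes it was 19 (22.9%, against 10.8%). With the replicate number as a block it was 52 (62.7%, against 13.6%), though the titles do not say what that number stands for. Without HCC4006 DEM replicate 0 or HCC4006 vehicle replicate 1 no member was called, against 3.49% and 2.54% of all genes lower, and unadjusted p was under 0.05 for 25 and 21 members. Without DEM replicate 1, 6 members were lower (7.23%, against 4.16% of all genes), 4 of them among the 18, and without vehicle replicate 0 it was 1, *RPL22L1* (1.2%, against 3.02%). In those 4 fits 79 to 82 of the 83 members had a negative log2 fold change. With the spread shared by all 8 libraries, 2 members (*RPL22L1* and *RPL29*, 2.41%) were lower against 6.19% of all genes, a smaller share than the background, and with median-of-ratios scaling 8 (9.64%) were lower against 9.10%, a share near it.

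**Figure D2:**
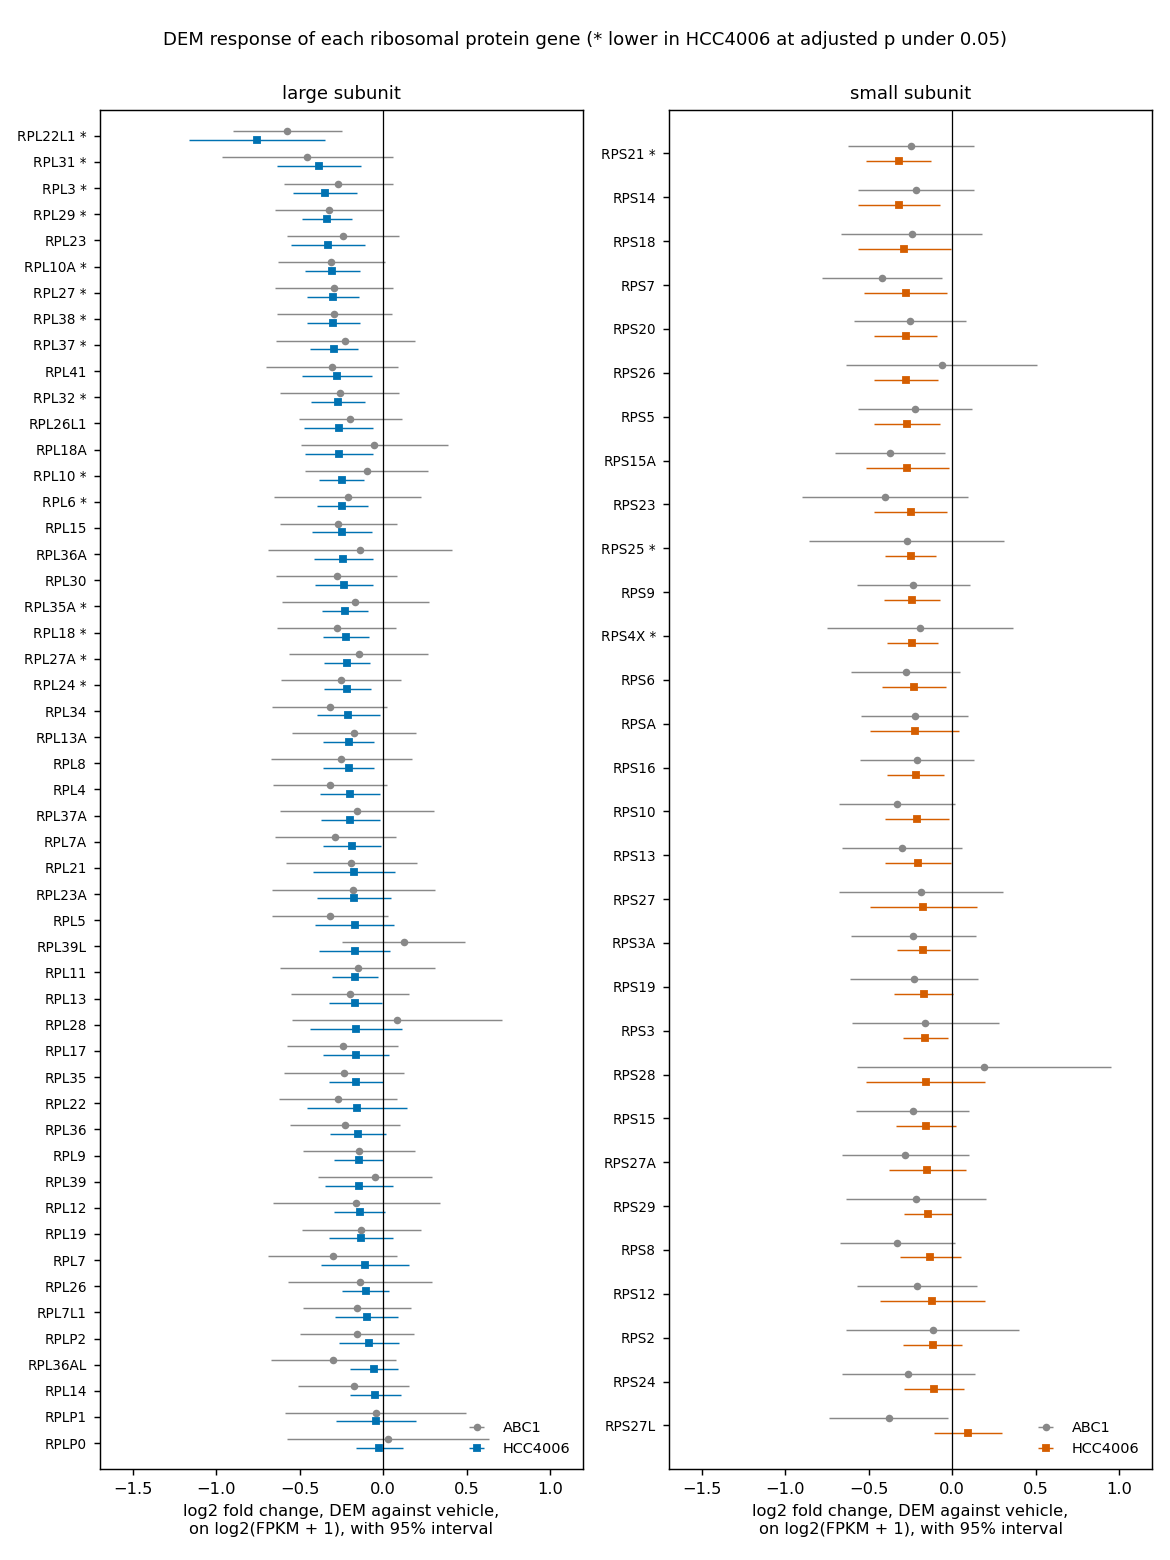
Log2 fold change of DEM against vehicle on log2(FPKM + 1) for 81 of the 83 members tested, with its 95% interval, grey for ABC1 and coloured for HCC4006, large subunit left and small subunit right, ordered by HCC4006. Nearly all points lie left of 0, most intervals of ABC1 are wider than those of HCC4006, and *RPL22L1* lies farthest left.

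Among the members called in HCC4006, those of the large subunit covered several parts of the particle. *RPL22L1*, the paralogue of *RPL22* (which encodes an RNA-binding protein of the large subunit), had 37.04 and 39.7 FPKM with vehicle and 27.3 and 23.7 FPKM with DEM in ABC1, and 28.8 and 35.5 FPKM with vehicle and 15.9 and 21.5 FPKM with DEM in HCC4006. Every DEM library was below every vehicle library of its line. The log2 fold change was -0.57 ± 0.13 (adjusted p = 0.096) in ABC1 and -0.76 ± 0.17 (adjusted p = 0.031) in HCC4006, the most negative of all members tested in each line. *RPL31*, a protein at the exit of the nascent chain, had 352 and 328 FPKM with vehicle and 301 and 204 FPKM with DEM in ABC1, and 227 and 236 FPKM with vehicle and 160.3 and 195 FPKM with DEM in HCC4006. Its DEM libraries were again below the vehicle libraries, with -0.45 ± 0.21 (adjusted p = 0.27) in ABC1 and -0.38 ± 0.10 (adjusted p = 0.049) in HCC4006.

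*RPL3*, which reaches toward the peptidyl transferase centre, had 366 and 369.7 FPKM with vehicle and 271 and 309 FPKM with DEM in HCC4006, a log2 fold change of -0.35 ± 0.08 (adjusted p = 0.033). In ABC1 it was -0.27 ± 0.13 (adjusted p = 0.30), with 517 and 517 FPKM with vehicle and 444 and 414 FPKM with DEM. *RPL29*, also on the large subunit, had 275 and 279 FPKM with vehicle and 224 and 214 FPKM with DEM in HCC4006, with -0.34 ± 0.06 (adjusted p = 0.018). Its ABC1 levels were 512 and 544 FPKM with vehicle and 423 and 419.7 FPKM with DEM, with -0.32 ± 0.13 (adjusted p = 0.23). The groups did not overlap for either gene in either line.

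*RPL10A* had 294 and 308 FPKM with vehicle and 235 and 252 FPKM with DEM in HCC4006, a log2 fold change of -0.30 ± 0.07 (adjusted p = 0.03). *RPL27* had 455 and 477 FPKM with vehicle and 369 and 387 FPKM with DEM, with -0.30 ± 0.06 (adjusted p = 0.027). *RPL38*, which is known for a role in the translation of homeobox mRNAs, had 755 and 769.9 FPKM with vehicle and 596 and 644 FPKM with DEM, with -0.30 ± 0.06 (adjusted p = 0.029). These 3 fell by about the same amount, and their ABC1 values were -0.31, -0.30 and -0.29, none of them called. The other 8 large subunit members called in HCC4006 were *RPL37*, *RPL32*, *RPL10*, *RPL6*, *RPL35A*, *RPL18*, *RPL27A* and *RPL24*, with log2 fold changes between -0.29 and -0.22. *RPL37*, among the highest members in ABC1, had 987 and 947 FPKM with vehicle and 779.8 and 798 FPKM with DEM, and *RPL10*, near the peptidyl transferase centre, had 800.4 and 808 FPKM with vehicle and 675 and 679 FPKM with DEM.

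On the small subunit, *RPS21* had 239 and 232 FPKM with vehicle and 177 and 201 FPKM with DEM in HCC4006, with -0.32 ± 0.08 (adjusted p = 0.042), and -0.25 in ABC1. The other small subunit members called were *RPS25*, which is known to be needed by several viral internal ribosome entry sites, at -0.25 ± 0.06 (adjusted p = 0.044), and the X-linked *RPS4X* at -0.24 ± 0.06 (adjusted p = 0.046). *RPS7*, *RPS23* and the paralogue *RPS27L* had the most negative ABC1 values of the small subunit, -0.42, -0.40 and -0.38, none of them called (adjusted p = 0.18, 0.31 and 0.20).

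The P stalk, the flexible arm of the large subunit that recruits the translation factor GTPases, lay near 0 in HCC4006. *RPLP0*, its base, had 1924 and 2401 FPKM with vehicle and 1807 and 2653 FPKM with DEM in ABC1, and 1450.3 and 1389.6 FPKM with vehicle and 1391 and 1400.1 FPKM with DEM in HCC4006. *RPLP1* had 1363 and 1831 FPKM with vehicle and 1361 and 1724 FPKM with DEM in ABC1, and 1223 and 1055 FPKM with vehicle and 1177 and 1033 FPKM with DEM in HCC4006. *RPLP2* had 286 and 329 FPKM with vehicle and 269 and 283 FPKM with DEM in ABC1, and 194 and 178 FPKM with vehicle and 169.7 and 181 FPKM with DEM in HCC4006. In HCC4006 the vehicle and DEM libraries overlapped for all 3, and the log2 fold changes were -0.02 (95% interval -0.17 to 0.12), -0.04 (-0.28 to 0.20) and -0.09 (-0.27 to 0.10). In ABC1 they were 0.03, -0.04 and -0.15. The signs of *RPLP0* and *RPLP1* in both lines depended on single libraries, and that of *RPLP0* in HCC4006 also on the scaling.

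*RPL5* and *RPL11*, which with the 5S rRNA bind MDM2 when assembly fails, were not called. *RPL5* had 353 and 381 FPKM with vehicle and 299 and 355 FPKM with DEM in HCC4006 and 628 and 609 FPKM with vehicle and 524 and 468 FPKM with DEM in ABC1, with -0.17 ± 0.10 (adjusted p = 0.25) and -0.32 ± 0.14 (adjusted p = 0.26). *RPL11* had 1484 and 1514 FPKM with vehicle and 1355 and 1313 FPKM with DEM in HCC4006, with -0.17 ± 0.06 (adjusted p = 0.09), and -0.15 in ABC1.

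2 further ribosome components are encoded by genes that the naming rule misses. *RACK1*, a scaffold on the small subunit, had 1765 and 1724 FPKM with vehicle and 1351 and 1392 FPKM with DEM in HCC4006 and fell, with -0.35 ± 0.06 (adjusted p = 0.014). *FAU*, a ubiquitin-like protein fused to a small subunit protein, had 345 and 339.5 FPKM with vehicle and 303 and 293 FPKM with DEM, with -0.20 ± 0.06 (adjusted p = 0.065). In ABC1 they were -0.23 and -0.08, neither of them called.

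Across both lines, 47 of 83 members had both DEM libraries below both vehicle libraries in each line, and 78 had a negative log2 fold change in each. Over all genes tested, the DEM pair lay below in 28.2% in ABC1 and 35.3% in HCC4006. Negative log2 fold changes made up 52.3% and 53.0%. The share of all genes with either pattern in both lines was not computed. Across the 83 members the log2 fold changes of the lines had a Pearson r of 0.42 and a Spearman rho of 0.37, a description over genes that share their libraries. Medians were close with and without the pyrimidine run at the annotated start. The 43 members with it had medians of -0.23 in ABC1 and -0.21 in HCC4006. The 24 tested members with a promoter sequence but without the run there had medians of -0.23 and -0.18. Only the annotated position was examined, so a member without the run there could have it at another start. Whether the start bears on the response was therefore not tested.

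The difference of the DEM response between the lines was tested in all 8 libraries. None of the 83 members was called, against 0.636% of all genes. Unadjusted p was under 0.05 for 2068 of all 13682 genes tested and for 1 member. This was *RPS27L*, a p53 target and the paralogue of *RPS27*, which had 19.7 and 16.8 FPKM with vehicle and 14.6 and 12.95 FPKM with DEM in ABC1, and 45.8 and 44.3 FPKM with vehicle and 45.8 and 50.8 FPKM with DEM in HCC4006. The DEM pair lay below the vehicle pair in ABC1. In HCC4006 it lay above, where the nearest libraries almost touched. The difference was 0.48 ± 0.16 (adjusted p = 0.23). *RPS28* had a difference of -0.35 (95% interval -1.29 to 0.59) and *RPL39L* of -0.29 (-0.70 to 0.11). Both intervals include 0.

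**Figure D3:**
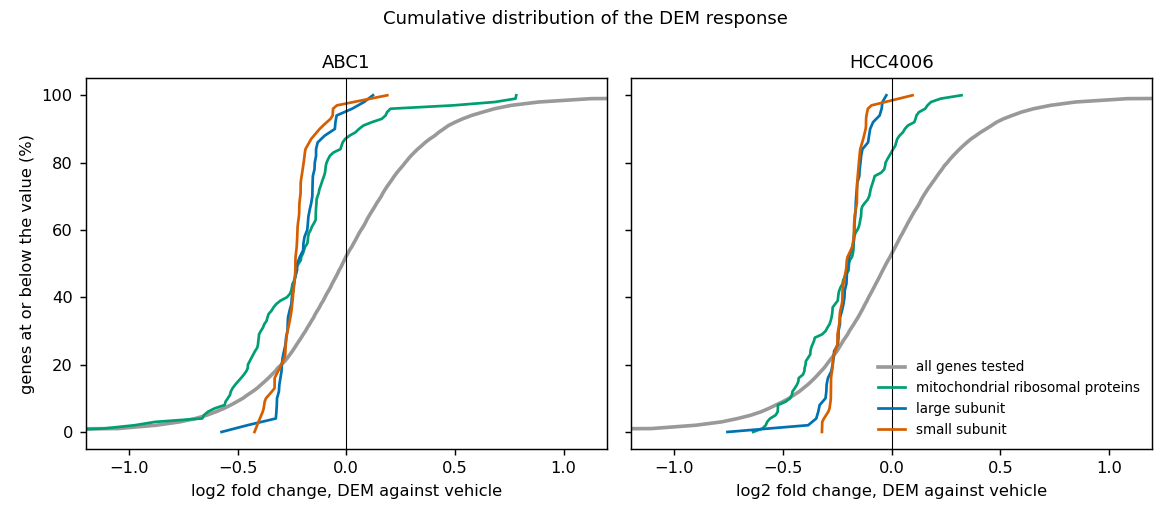
Percent of genes at or below a log2 fold change of DEM against vehicle, in ABC1 (left) and HCC4006 (right), for all genes tested, mitochondrial ribosomal proteins, and large and small subunit members. The curves of both subunits rise steeply around their medians of -0.20 to -0.23, while all genes spread about 0.

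The vehicle-treated lines differed by more than vehicle and DEM did at the median. Of 83 members, 59 were lower in HCC4006 than in ABC1, against 30.2% of all genes, and 7 were higher, against 36.8%. The median log2 difference (HCC4006 minus ABC1) was -0.55 for the large and -0.88 for the small subunit, against 0.07 over all genes. The order of the members was similar in the lines (Pearson r of the log2 levels 0.87, Spearman rho 0.81, over 83 genes).

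*RPS28*, near the mRNA exit of the small subunit, differed most, with 443 and 569.7 FPKM in vehicle-treated ABC1 and 52.9 and 39.2 FPKM in vehicle-treated HCC4006. The difference was -3.44 ± 0.28 (adjusted p = 2.4e-05). The pseudogene *RPS28P7* had a mean of 4.04 ± 2.58 FPKM in vehicle-treated ABC1 and 103 ± 4.24 FPKM in vehicle-treated HCC4006 (SD, n = 2). With the pseudogenes named for *RPS28* added to it, the difference was -1.77. Reads of the gene and of this copy could be divided differently by the authors' quantification, so the *RPS28* values are uncertain.

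*RPL13A*, known from a translation-silencing complex activated by interferon, had 1616 and 1615 FPKM in vehicle-treated ABC1 and 335 and 348 FPKM in vehicle-treated HCC4006, a difference of -2.24 ± 0.09 (adjusted p = 5.1e-07). *RPL7* had 615 and 579 FPKM in vehicle-treated ABC1 and 151 and 173 FPKM in vehicle-treated HCC4006, with -1.88 ± 0.14 (adjusted p = 1.2e-05). No vehicle-treated HCC4006 library reached any ABC1 library for these genes.

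7 members were higher in HCC4006. The paralogue *RPL36AL* had 155 and 184 FPKM in vehicle-treated ABC1 and 618 and 595 FPKM in vehicle-treated HCC4006, with 1.84 ± 0.12 (adjusted p = 6.5e-06). The others were *RPS27L*, *RPS4X*, *RPS6* (the substrate of S6 kinase), *RPL36A*, *RPL39* and *RPL26L1*, with differences between 0.66 and 1.26. All 4 X-linked members (*RPL10*, *RPL36A*, *RPL39* and *RPS4X*) had a positive difference, 3 of them called, with a median of 0.73. The 420 other X-linked genes tested had a median of 0.81. Of all 83 members, 71 had a negative difference. They included all 12 members on chromosome 19, 11 of them called. Their median was -0.67, against 0.02 for the other genes tested there. All 5 on chromosome 6, all 4 on chromosome 8 and all 4 on chromosome 12 were called lower. Their medians were -0.92, -1.17 and -0.78, against -0.25, -0.34 and -0.26 for the other genes. Members on several other chromosomes, among them 1, 2 and 11, were also all negative. The share of other genes called was not computed by chromosome. Over all chromosomes 71.1% of the members were called lower, against 30.2% of all genes, and 8.43% higher, against 36.8%.

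**Figure D4:**
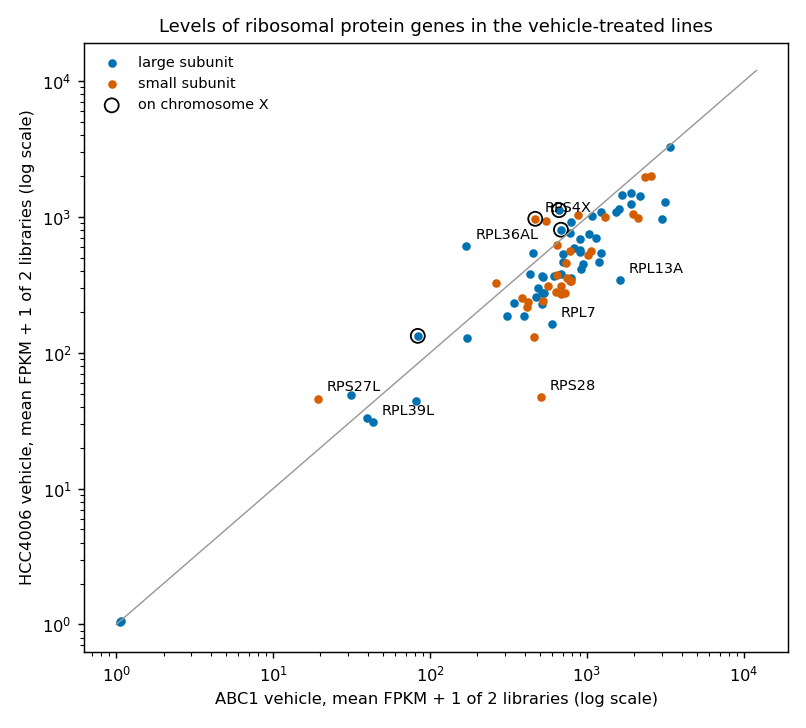
Mean FPKM + 1 of 83 members in vehicle-treated ABC1 (horizontal, log scale) and vehicle-treated HCC4006 (vertical, log scale), 2 libraries each, with the line of equal levels, large and small subunit in different colours, and circles for chromosome X. Most points lie below the line, the 4 X-linked members above it, and *RPS28* farthest below.

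Levels covered a wide range. In vehicle-treated ABC1 the highest member was *RPL28*, with 2935 and 3851 FPKM with vehicle and 2979 and 4251 FPKM with DEM. *RPL8* had a mean of 3117 FPKM, *RPL37* 2985 FPKM and *RPS2* 2555 FPKM with vehicle. The vehicle libraries of *RPL28*, *RPL8* and *RPL37* overlapped, and those of *RPS2* lay below those of *RPL37*. In HCC4006 the highest were *RPL28*, *RPS2*, *RPS3*, *RPL11* and *RPL37A*, with means of 3293, 1999, 1975, 1499 and 1439.5 FPKM. There *RPL28* stood clear of *RPS2*, and *RPS3* of *RPL11*, while *RPS2* overlapped with *RPS3* and *RPL11* with *RPL37A*.

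Many members share sequence with copies elsewhere. Of the 85 members, 67 shared at least 1 exact stretch of 80 bases, the read length, with a pseudogene or another gene whose symbol begins with RP, and 42 shared over 10% of their transcript's stretches. *RPL21* shared the most, 84.2%. The 1590 pseudogenes named for members held between 1.01% and 1.58% of the members' summed FPKM, and adding them left the count of HCC4006 calls at 18.

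The diverged paralogues were set against their parent genes, per length. With vehicle, the libraries of the lines did not overlap for any of the 6 that were tested. The share of all genes without such overlap was not computed. By limma 2 of the 6 (33.3%) were called lower in HCC4006, against 30.2% of all genes. A further 3 (50%) were called higher, against 36.8%, and *RPL22L1* was not called. *RPL22L1* stood at 9.15% and 10.4% of *RPL22* with vehicle and 7.76% and 7.87% with DEM in ABC1, and at 16.7% and 18.02% with vehicle and 10.8% and 11.7% with DEM in HCC4006. The DEM values lay below the vehicle values in each line. *RPL39L* stood at 43.8% and 60.02% of *RPL39* with vehicle in ABC1 and at 23.3% and 22.0% in HCC4006. *RPL36AL* stood at 26.9% and 24.6% of *RPL36A* in ABC1 and at 53.7% and 54.5% in HCC4006, and *RPS27L* at 1.80% of *RPS27* in both ABC1 libraries and at 9.20% and 8.10% in HCC4006. *RPL7L1* and *RPL26L1* were also a larger share of their parents in HCC4006 (26.8% and 4.44%, means) than in ABC1 (13.5% and 1.98%). A larger share did not always mean a higher paralogue. Between the vehicle-treated lines (HCC4006 minus ABC1) *RPL7L1* itself was lower, at -0.88, and *RPL7* lower still, at -1.88. *RPL22L1* was at -0.26, not called, and *RPL22* at -1.09. *RPL26L1* itself was higher, at 0.66. *RPL26L1* had 50.7 and 45.8 FPKM with vehicle and 38.9 and 40.9 FPKM with DEM in HCC4006, with -0.27 ± 0.08 (adjusted p = 0.077), and *RPL7L1* -0.10 ± 0.08 (adjusted p = 0.40).

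**Figure D5:**
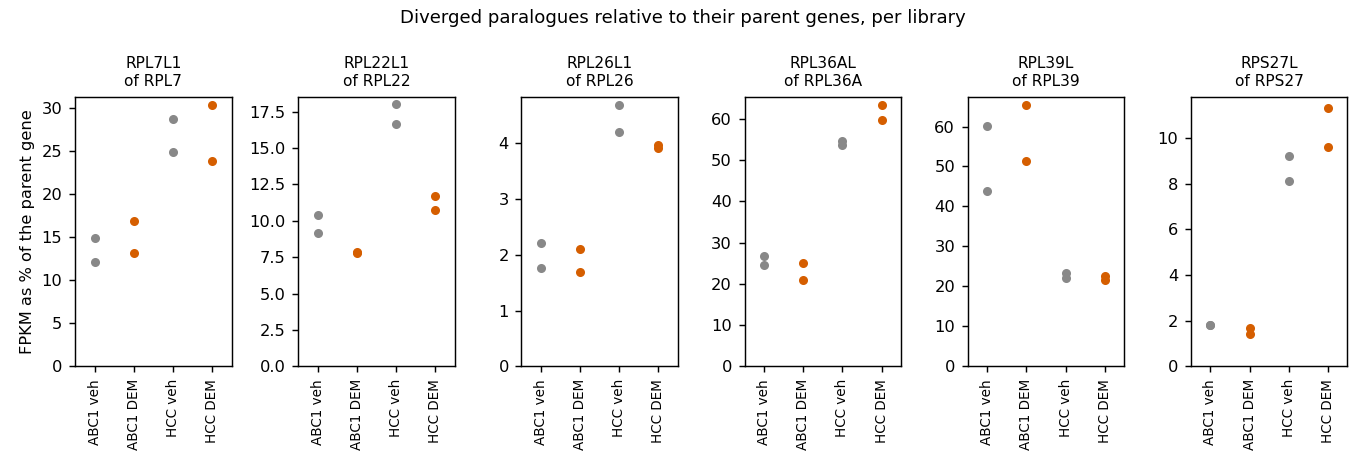
FPKM of 6 diverged paralogues as a percent of the FPKM of their parent gene, 1 point per library, vehicle in grey and DEM in orange, each panel on its own axis from 0. In HCC4006 *RPL22L1* is at 16.7% and 18.02% of *RPL22* with vehicle and at 10.8% and 11.7% with DEM.

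Other genes of ribosome production were described from gene lists. Of 76 mitochondrial ribosomal protein genes tested, 1 (1.32%, against 0.435% of all genes) was lower in ABC1 and 23 (30.3%, against 10.7%) in HCC4006 and none higher, with medians of -0.22 and -0.20. *MRPL46* had 26.3 and 26.5 FPKM with vehicle and 13.5 and 12.8 FPKM with DEM in ABC1 and fell in both lines, with -0.95 ± 0.12 (adjusted p = 0.042) and -0.64 ± 0.13 (adjusted p = 0.025). *MRPL33* was -0.58 ± 0.09 (adjusted p = 0.013) in HCC4006, *MRPL1* -0.58 ± 0.10 (adjusted p = 0.016) and *MRPL16* -0.56 ± 0.09 (adjusted p = 0.014).

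Of 51 ribosome assembly factors, 17 (33.3%, against 10.7% of all genes) were lower and 1 (*SBDS*, 0.27) higher in HCC4006 and none was called in ABC1, with medians of -0.22 and -0.17. *TSR1*, a late small subunit factor, had 55.8 and 52.5 FPKM with vehicle and 29.9 and 32.8 FPKM with DEM in HCC4006, with -0.77 ± 0.08 (adjusted p = 0.0048). *RRS1*, which helps place the 5S RNP, was -0.62 ± 0.09 (adjusted p = 0.0091), *NOLC1* -0.62 ± 0.10 (adjusted p = 0.012) and *NIP7* -0.60 ± 0.10 (adjusted p = 0.014). Of 7 chaperones that escort new ribosomal proteins, 2 (28.6%) were lower in HCC4006: *GRWD1*, which binds RPL3, with 53.2 and 51.3 FPKM with vehicle and 31.4 and 28.7 FPKM with DEM and -0.78 ± 0.08 (adjusted p = 0.0043), and *HEATR3*, which carries RPL5, with -0.52 ± 0.14 (adjusted p = 0.048).

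Of 14 genes of RNA polymerase I, which transcribes the rRNA precursor, 4 (28.6%, against 10.7% of all genes) were lower in HCC4006 (*POLR1G* -0.71 ± 0.13 (adjusted p = 0.018), *POLR1E* -0.52, *POLR1F* -0.47 and *TAF1C* -0.35). Of 18 translation factors and other genes with TOP starts, 3 (16.7%) were lower: *HNRNPA1* at -0.62 ± 0.07 (adjusted p = 0.0044), *BTF3* at -0.31 and *EIF3H* at -0.27. None of the 14 or the 18 was called in ABC1. The 14 had medians of -0.07 in HCC4006, with 5 positive, and -0.26 in ABC1, with 3 positive. The 18 had medians of -0.14 in HCC4006, with 4 positive, and -0.18 in ABC1, where all were negative.

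Of 15 regulators of TOP mRNAs and mTORC1, 3 (20%, against 8.45% of all genes) were higher in HCC4006 and none was called in ABC1. As a list they had medians of 0.02 in HCC4006, with 6 negative, and 0.14 in ABC1, with 5 negative. *MYC*, a transcription factor for ribosome genes, had 32.7 and 27.7 FPKM with vehicle and 46.6 and 49.2 FPKM with DEM in ABC1, and 25.2 and 22.2 FPKM with vehicle and 40.1 and 36.2 FPKM with DEM in HCC4006, with 0.65 ± 0.14 (adjusted p = 0.08) and 0.67 ± 0.10 (adjusted p = 0.011). Every DEM library was above every vehicle library of its line. *LARP1*, which binds the TOP start, had 180.0 and 169 FPKM with vehicle and 287 and 257 FPKM with DEM in HCC4006, with 0.64 ± 0.08 (adjusted p = 0.0066). *TSC1*, a brake on mTORC1, was 0.51 ± 0.13 (adjusted p = 0.044). Of 11 genes of ribosome quality control, 2 (18.2%, against 8.45% of all genes) were higher in HCC4006 and none in ABC1. These were *GTPBP2* at 0.70 ± 0.12 (adjusted p = 0.017) and *PELO* at 0.50 ± 0.11 (adjusted p = 0.034). Most of the 11 were negative, 7 in HCC4006 with a median of -0.10 and 8 in ABC1 with a median of -0.12.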

How the data were processed

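RNA was measured in 8 libraries of poly(A) RNA, strand-specific, read as 80-base pairs on a NextSeq 500. The FPKM values are those the authors deposited: by the study's methods, reads were aligned to hg19 with TopHat and quantified with Cufflinks, while the submitters' processing notes list bcl2fastq 2.15.0, cutadapt 1.15, STAR 2.5.3a, SAMtools, Cuffnorm, HTSeq, DESeq2 and R 3.2.0. FPKM values carry no counts, so no count model was used and counting error is unknown. The deposited tables of the authors' own DESeq2 comparisons (fold changes and p-values) were not used. Symbols came from a table of gene identifiers and names, which matched 55534 of the 57815 identifiers, gene types and positions from the GENCODE annotation of GRCh37, and promoter sequences from RefSeq on GRCh38.p14.

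Groups followed the sample titles. The test was limma (version 3.58.1, run in R 4.3.3) on log2(FPKM + 1), its prior variance following mean expression, within each line for DEM and over all 8 libraries for the line and interaction contrasts. Genes needed a mean of at least 1 FPKM, and calls an adjusted p under 0.05 (Benjamini-Hochberg over all genes tested). The script was tested on simulated data. The members and lists were chosen with earlier results of these data known. Genes named were up to 8 called members per line and direction by size of change, the 3 largest interactions, the 5 largest line differences, the 5 highest and 5 lowest members by level, all P stalk, 5S RNP and paralogue genes, *FAU* and *RACK1*, and up to 4 called genes (2 if none) from each other list. Values of some genes that this rule takes in are not reported here, though counts and sums include them. Other members named were chosen after their values were seen. Alternatives were a pseudocount of 0.1, minima of 5 FPKM or none, other scalings, no trend, pseudogenes added, the replicate number as a block, an 8-library model and leaving out each library.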

Additional observations from a re-analysis of the deposited data

Results flagged for a closer look

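*RPS27L* was set apart because its vehicle and DEM libraries did not overlap and lay on opposite sides in the 2 lines. They were lower with DEM in ABC1 and higher in HCC4006, where the nearest libraries almost touched. Across the alternatives its log2 fold change in HCC4006 was between 0.02 and 0.17. The difference of the responses was 0.48 on the log2 scale, with an unadjusted p of 0.02 and an adjusted p of 0.23 by limma over all genes, and so was not called. It was the 1 member of 83 with libraries on opposite sides in the lines, and the share of all genes with this pattern was not computed. With 2 libraries per group, no group was large enough to look for single outlying libraries.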

How the results depend on the processing

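The number of members lower with DEM in HCC4006, 18 as reported (21.7%, against 10.7% of all genes), was 8 with median-of-ratios scaling (9.64% against 9.10%), 2 with the model of all 8 libraries (2.41% against 6.19%), and 0 with no mean-variance trend (against 7.37%) or no minimum FPKM (against 0.631%), where limma gave 20 and 25 members an unadjusted p under 0.05. In these 4 fits the share of members was near or below that of all genes. The count ranged from 0 to 6 when 1 library was left out. With no minimum FPKM more genes were tested, and without a library fewer samples entered; otherwise the cause was not tested. None of these settings gave a member that was higher. In ABC1 the count stayed at 0 in every setting but the replicate block. The library titles give the groups shared numbers and say nothing more of them. The deviations of same-numbered libraries from their group means had an r of 0.26 in ABC1 and 0.05 in HCC4006 over all genes, and 0.83 and 0.64 over the members. With the replicate block, 20 members (24.1%, against 9.20% of all genes) were lower in ABC1 and 52 (62.7%, against 13.6%) in HCC4006, and between the vehicle-treated lines 65 (78.3%, against 32.7%) were lower and 12 (14.5%, against 39.3%) higher in HCC4006.

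The median of small subunit members lay between -0.30 and -0.21 in ABC1 when 1 library was left out, and between -0.28 and -0.15 in HCC4006. The share of summed FPKM was 11.5% in vehicle-treated ABC1 with pseudogenes added. Without the mitochondrial genome the mean shares were 13.6% and 11.9% in ABC1 and 8.56% and 7.59% in HCC4006, vehicle before DEM. With median-of-ratios scaling the log2 fold change turned to 0.0070 for *RPLP0* in HCC4006 and to 0.0029 for *TAF1C* in ABC1.

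Leaving out 1 library at a time turned the sign of some genes that were not called. In ABC1 the log2 fold changes ranged from -0.25 to 0.63 for *RPS28*, -0.0039 to 0.25 for *RPL39L*, -0.17 to 0.34 for *RPL28*, -0.30 to 0.059 for *RPS2*, -0.25 to 0.30 for *RPLP0*, -0.26 to 0.17 for *RPLP1*, -0.21 to 0.056 for *FAU*, -0.61 to 0.036 for *NOLC1*, -0.065 to 0.043 for *TAF1C* and -0.074 to 0.13 for *TSC1*. In HCC4006 they ranged from -0.37 to 0.051 for *RPS28*, -0.23 to 0.014 for *RPL7*, -0.055 to 0.0064 for *RPLP0*, -0.15 to 0.065 for *RPLP1* and -1.24 to 0.53 for the haemoglobin gene *HBB*. The difference between the lines for *RPS28* ranged from -0.79 to 0.091. FPKM values show no counts, so the counting error behind low members is unknown.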
